A study of Drosophila melanogaster with 3 samples.

Results

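The orphan nuclear receptor genes Hr3, Hr4, Hr38, Hr39, Hr78 and ftz-f1 and the zinc finger repressor gene Blimp-1 of Drosophila melanogaster were examined for binding of Sox14, an ecdysone-responsive transcription factor of the Sox family that contacts DNA through an HMG box. These 7 genes, of 13945 protein-coding genes on the 6 main chromosome arms, were taken by name. Every summit, the highest point of a peak, within the annotated gene span plus 5 kb on each side was assigned to the gene. Chromatin immunoprecipitation and sequencing (ChIP-seq) had been done with an antibody against GFP on a transgenic Sox14-GFP strain that stably expresses Sox14 with GFP at its C terminus. The whole animals were white prepupae, which have just begun metamorphosis, with males and females pooled and their age given as unknown. There was 1 group of 3 biological replicates. No untagged or other control sample was analysed here, and the promoter that drives the fusion is not stated in the labels. The optimal list, in which the authors kept reproducible peaks, had 9316 entries, and the permissive relaxed lists, for single replicates and for their pool, had 30000 entries apiece. Positions are on build dm6. The read depth is unknown because the lists hold no read counts.

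At the end of larval life a pulse of the steroid ecdysone, acting through the receptor pair EcR and usp, induces a cascade of transcription factors. Hr3 and Hr4 are hormone-induced receptors that repress early genes and promote the later expression of ftz-f1, while Blimp-1 represses ftz-f1 and so sets when it comes on. The ftz-f1 receptor then makes prepupal tissues competent to respond to the next pulse, and Hr39 is its closest relative in the fly. Hr38 can pair with usp, and Hr78 is an orphan receptor required for development to pass into metamorphosis.

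The sequences of 10 summit regions are shown because they carry the strongest peaks or the words compared further on. They are plus-strand windows of 50 bases on each side of the summit, or the part of it outside annotated exons, read from the RefSeq copy of the Release 6 genome. The Hr4 lines give its 3 strongest summits. The Hr78 line gives the bases just outside its start, the Hr38 line its intronic summit, the next Hr39 line its promoter summit and the Blimp-1 line its strongest summit. The remaining lines are the strongest ftz-f1 summit, another ftz-f1 intronic summit and an Hr39 intronic summit, each with a GAGA word. Capitals mark GAGAGAG, the nuclear receptor half-site AGGTCA and Sox-type heptamers, on either strand.
Hr4 chrX:1951857-1951957: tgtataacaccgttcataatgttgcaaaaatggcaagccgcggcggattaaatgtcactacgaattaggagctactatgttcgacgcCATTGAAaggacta
Hr4 chrX:1947715-1947815: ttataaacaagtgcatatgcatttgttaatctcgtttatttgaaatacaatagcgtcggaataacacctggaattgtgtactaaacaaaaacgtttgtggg
Hr4 chrX:1948673-1948773: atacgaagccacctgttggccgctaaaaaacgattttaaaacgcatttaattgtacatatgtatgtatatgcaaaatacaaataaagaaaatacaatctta
Hr78 chr3L:21497495-21497536: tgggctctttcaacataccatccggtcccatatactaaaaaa
Hr38 chr2L:20700711-20700811: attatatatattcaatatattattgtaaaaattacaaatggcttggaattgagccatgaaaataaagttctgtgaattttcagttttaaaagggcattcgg
Hr39 chr2L:21237134-21237234: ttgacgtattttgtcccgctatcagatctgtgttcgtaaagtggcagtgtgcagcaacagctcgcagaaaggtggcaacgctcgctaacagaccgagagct
Blimp-1 chr3L:5633724-5633824: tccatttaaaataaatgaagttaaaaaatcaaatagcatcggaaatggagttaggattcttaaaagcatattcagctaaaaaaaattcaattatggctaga
ftz-f1 chr3L:18759305-18759405: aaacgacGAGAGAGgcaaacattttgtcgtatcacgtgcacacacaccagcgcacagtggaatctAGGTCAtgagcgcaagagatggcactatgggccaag
ftz-f1 chr3L:18760697-18760797: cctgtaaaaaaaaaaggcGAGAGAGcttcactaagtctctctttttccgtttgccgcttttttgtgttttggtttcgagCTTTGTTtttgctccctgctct
Hr39 chr2L:21251066-21251166: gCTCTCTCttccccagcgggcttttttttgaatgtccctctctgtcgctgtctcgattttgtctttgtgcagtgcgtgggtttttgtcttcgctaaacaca

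All 7 genes had at least 1 optimal summit in their windows, where 60.7% of all protein-coding genes had one. All 7 also had a pooled relaxed summit, against 78.6% of all genes. The windows held 56 optimal summits, which numbered 15 at Hr4, 13 at ftz-f1, 11 at Hr3, 8 at Hr39, 5 at Blimp-1, 3 at Hr38 and 1 at Hr78. As many summits as at Hr4 were found at 0.301% of protein-coding genes, as many as at ftz-f1 at 0.437%, and as many as at Hr3 at 0.774%. The windows ran from 13.5 kb at Hr78 to 76.0 kb at Hr4, against a median of 12.2 kb over all genes, and longer windows held more summits except at Hr38. Per 10 kb there were 2.54 summits at Hr3, 2.47 at Hr39, 2.14 at ftz-f1, 1.97 at Hr4 and 1.61 at Blimp-1. Hr78 and Hr38 were lower, with 0.742 and 0.729. The low value of Hr78 depended on the flank, which makes up most of its window. With flanks of 1 kb Hr78 had 1.83, above Hr4 (1.76) and Blimp-1 (1.73), while Hr38 had 0.302. The order of Hr39 changed too, with 2.05 at those flanks against 2.09 at ftz-f1, while Hr3 had 2.55. The median protein-coding gene had 0.772, and 11.2% of genes were as dense as Hr3.

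**Figure D1:**
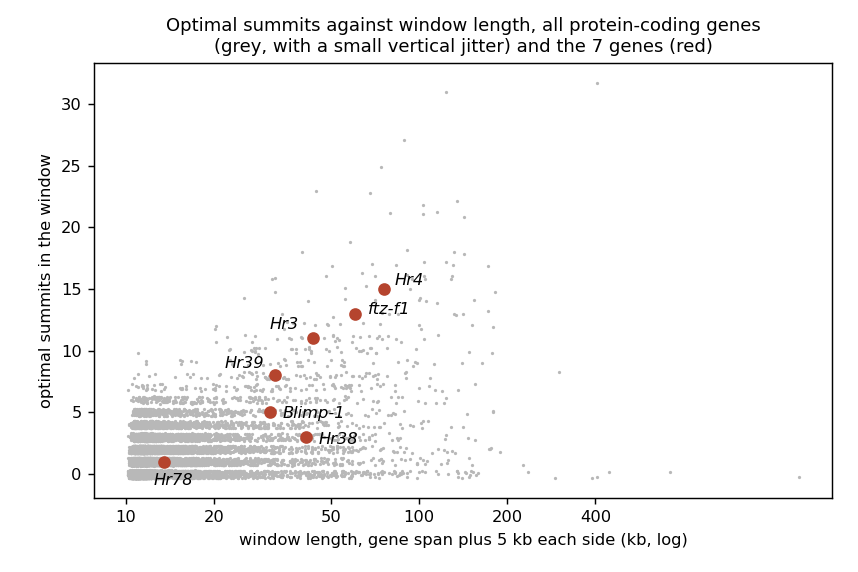
Optimal summits per gene (vertical axis) against window length (gene span plus 5 kb on each side, in kb, log axis) for all protein-coding genes (grey, with a small vertical jitter) and the 7 genes (red). Hr4 (15 summits), ftz-f1 (13), Hr3 (11) and Hr39 (8) lie among the long windows with many summits, while Hr38 (3) and Hr78 (1) lie lower.

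Most of the binding lay away from the genes' own starts. Of the 56 summits, 36 were in introns, 10 downstream of the gene, 9 upstream and 1 in an untranslated region. The median distance to the nearest transcription start site (TSS) of the gene was 6799 bp, and 33 summits were more than 5 kb from every TSS of their gene. A summit lay within 500 bp of an own TSS at 4 of the 7 genes (Hr3, Hr39, Hr78 and ftz-f1), where 29.6% of all protein-coding genes had one. Only 6 of the 56 summits were that close to their own gene's TSS. Within 500 bp of the TSS of any protein-coding gene lay 15 of the 56 (26.8%), against 40.9% of all optimal summits. The nearest protein-coding TSS belonged to the gene itself at 39 of the 56 summits, and another gene's TSS lay nearest and within 1 kb at 13. A peak list does not show on which gene a bound site acts. In whole animals, weaker binding in every cell and binding in fewer cells cannot be told apart.

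**Figure D2:**
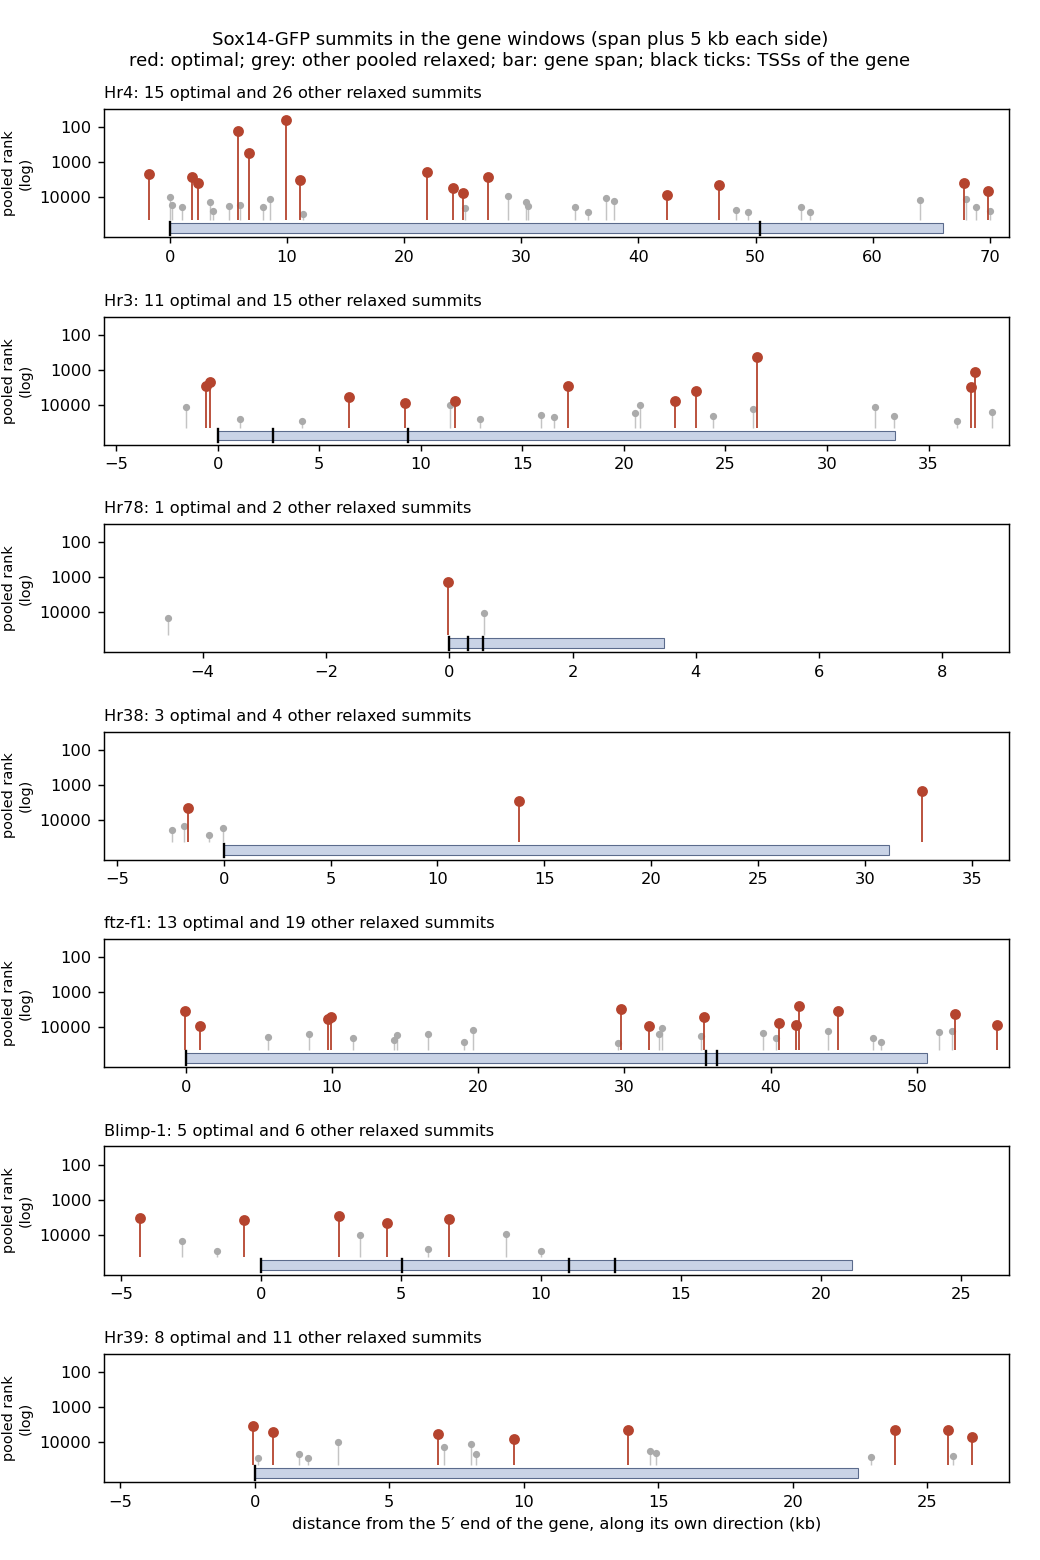
Summits along the 7 gene windows, with distance from the 5′ end of the gene in its own direction (kb, horizontal) and rank by signal in the pooled list (log axis, strongest at the top). Red marks are optimal summits, grey marks other pooled relaxed summits, the bar is the gene span and black ticks are annotated TSSs. The 3 strongest Hr4 summits stand 5.82 to 9.97 kb inside the gene, and 7 of the 11 Hr3 summits stand in its span.

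Hr3 encodes a receptor of the early-late class that acts between the early puff genes and ftz-f1. It lies on the minus strand of chromosome 2R at 10203995 to 10237348. Its strongest summit, at 10210788 in intron 1, ranked 419 of 9316 by signal in the pooled list, and 417, 435 and 455 in replicates 1, 2 and 3. The 3 replicate values were within 1.09 times of each other, and 7.64% of protein-coding genes had a best summit ranked as high. The summit was 17169 bp from the nearest Hr3 TSS and 559 bp from the start of lncRNA:CR46322, in a stretch that CG12912 and CG46321 also span. The nearest protein-coding TSS was that of CG34221, at 11077 bp. A summit 171 bp upstream of the Hr3 TSS at 10227957, a TSS shared with CG46321, was weak in each list, with pooled rank 8757 and replicate ranks of 11578, 6939 and 10642.

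The 2 summits between the outermost Hr3 TSS and Hdc, which encodes histidine decarboxylase, differed between replicates. The summit at 10237729, 381 bp upstream of Hr3 and 259 bp from the Hdc TSS, ranked 853 in replicate 1 and 1606 in replicate 3 but 20174 in replicate 2. The one at 10237932, 56 bp from the Hdc TSS, ranked 1157 and 2597 in replicates 1 and 3 and had no replicate 2 summit within 100 bp. Replicate 2 was thus low at both, and these neighbouring summits share their position rather than being separate observations. The ratio of worst to best rank at 10237729 was 23.7, and 0.037% of the 8100 optimal summits found in all 3 replicates had a ratio as wide. It was also 23.7 when the strongest replicate summit inside the peak was taken. The 2 summits downstream of Hr3 lay 367 and 567 bp from the start of CG34221. The stronger of them ranked 1183 in the pooled list and 1366, 1004 and 1423 in the replicates.

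Hr4 encodes a receptor that represses early genes. It lies on the plus strand of chromosome X at 1941940 to 2007956 and held the best-ranked summit of the 7 genes. That summit, at 1951907 in intron 2, had pooled rank 63 and replicate ranks of 74, 56 and 90. Its authors' signal was 471.2, 460.1 and 409.3 in replicates 1, 2 and 3, on scales that are separate for each list. A best summit ranked as high was present at 1.51% of protein-coding genes. It lay 9967 bp downstream of the Hr4 TSS, and its only searched word was the Sox-type heptamer printed above.

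A further summit of Hr4 intron 2, at 1947765, ranked 123 in the pooled list and 151, 139 and 109 in the replicates. The one at 1948723 ranked 543, with replicate ranks of 716, 592 and 402. In every replicate these 3 summits kept the order 1951907, 1947765, 1948723. Intron 2 held 6 of the 12 intronic Hr4 summits, and the other 6 were spread over introns 3 to 6. The other 12 Hr4 summits ranked from 1834 to 8430. Neither Hr4 TSS had an optimal summit within 500 bp. The nearest were 1738 bp upstream of the TSS at 1941940, in a place 105 bp from the start of CG3587, and 3438 bp upstream of the TSS at 1992300. A relaxed summit outside the optimal list lay 18 bp from the TSS at 1941940, at pooled rank 10131. The 2 downstream summits lay 352 bp from the TSS of PIG-K and 561 bp from that of east.

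ftz-f1 encodes the competence factor of the prepupa and spans 18750607 to 18801309 on the minus strand of chromosome 3L. It had many summits of middling rank rather than a strong one. Its best pooled rank was 2488, at 18759355 in intron 3, with replicate ranks of 5370, 1683 and 2337, so that replicate 1 was the weakest there. In all, 31.4% of protein-coding genes had a best summit ranked as high. Of its 13 summits, 5 were in intron 2 and 4 in intron 3, and the median pooled rank was 5205.

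Both groups of ftz-f1 starts were bound. A summit 74 bp upstream of the TSS at 18801309 had pooled rank 3412 and replicate ranks of 5506, 2673 and 3038. Another, 100 bp upstream of the TSS at 18765744, had pooled rank 5205 and replicate ranks of 8941, 3897 and 4729. Replicate 1 again ranked lowest at both. It was not lowest throughout the gene. Replicates 1, 2 and 3 ranked best at 2, 6 and 5 of the ftz-f1 summits. At 18756701 in intron 3, replicate 1 ranked 1929, against 7209 and 3715 in replicates 2 and 3. At 18769586 in intron 2, replicate 1 ranked 4962, against 17730 and 14155. The summit at 18791346 in intron 2 was matched within 100 bp in replicate 2 alone, at rank 2388. It was the only 1 of the 56 so matched in a single replicate. Replicate 3 had a summit of rank 4877 in that peak, 158 bp away, which was matched to the neighbouring optimal summit at 18791567. The 2 downstream summits stood 19 bp from the TSS of Atg3, which encodes an autophagy conjugation enzyme, and 29 bp from that of MED11, which encodes a Mediator subunit. Their pooled ranks were 4137 and 8807.

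Blimp-1, at 5630983 to 5652094 on the plus strand of chromosome 3L, encodes the repressor that delays ftz-f1. Its 5 summits had pooled ranks from 2947 to 4664 and signals from 161.7 to 222.4. The summit at 5633774 was the best in the pooled list and ranked 4247, 2113 and 3640 in the replicates. The summit at 5637689 varied least, with ranks of 3841, 3848 and 3774. The summit at 5630396 varied most, with ranks of 11870, 5391 and 2851 and a ratio of 4.16. Replicate 1 also had a summit of rank 3588 in that peak, 102 bp away, and with it the ratio was 1.89. All 5 were present in the relaxed lists of all 3 replicates. They stood from 4323 bp upstream to 6.71 kb downstream of the first TSS, and the rest of the span, toward the 3′ end, held none. None was within 500 bp of any of the 4 TSSs, although 587 bp and 544 bp upstream of the starts at 5630983 and 5636015 were the nearest. Blimp-1 and Hr78 were the genes at which no summit stood closer to a neighbour's start.

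Hr39, the relative of ftz-f1, lies on the plus strand of chromosome 2L at 21237250 to 21259675 and had 8 summits without a strong one. Its best pooled summit, 66 bp upstream of its single annotated TSS, ranked 3580, with 3665, 3816 and 4097 in the replicates. A best summit ranked as high was present at 39.3% of protein-coding genes. The summit at 21237939 in intron 1, 689 bp downstream of the TSS, ranked 27068, 1849 and 7009 in replicates 1, 2 and 3. That is a ratio of 14.6, which 0.247% of optimal summits reached. Replicate 2 was high there and replicate 1 low, but the size of the gap depended on the matching distance. Replicate 1 also had a summit of rank 11501 in the same optimal peak, 157 bp away, and with it the ratio was 6.22, which 2.46% of optimal summits reached. In the Hr39 window the next best summit of replicate 2 ranked 3594 and the best of replicate 3 ranked 3845. Both were at the start of CG8671, downstream of the gene. The best of replicate 1, at 3665, was instead the promoter summit. Intron 2 held 3 summits with pooled ranks of 4680, 5909 and 8335. The 3 downstream summits included 1 that was 135 bp from the TSS of l(2)k14505 and 1 that was 45 bp from the TSS of CG8671.

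Hr38 lies on the minus strand of chromosome 2L at 20683462 to 20714588 and had 3 summits in 41.1 kb. The best, of pooled rank 1484 and replicate ranks 1228, 2157 and 1440, was downstream of the gene and 67 bp from the TSS of Cen. Inside the gene the summit at 20700761 in intron 1 had pooled rank 2888 and replicate ranks of 1491, 6360 and 3771. The other, 1658 bp upstream of the Hr38 TSS, had pooled rank 4726 and replicate ranks of 8557, 5653 and 3239. Thus the best rank listed for Hr38 was that of a neighbour's promoter.

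Hr78 is the shortest of the 7 genes, on the minus strand of chromosome 3L at 21494019 to 21497494. Its single summit stood 19 bp upstream of its outermost TSS, inside the annotated antisense gene asRNA:CR43933. It had pooled rank 1406, signal 346.8 and replicate ranks of 1757, 1940 and 1128. The best summits of 21.0% of protein-coding genes ranked as high.

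**Figure D3:**
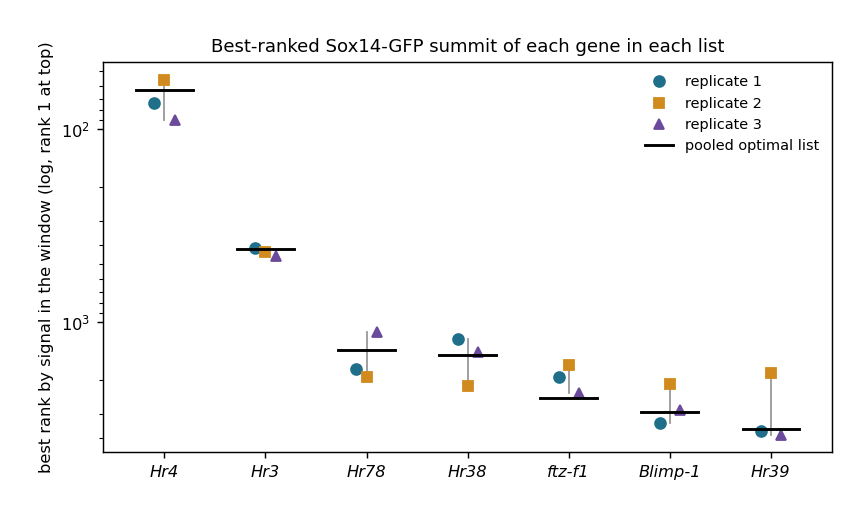
Best rank by signal (log axis, rank 1 at the top) of each gene's window in replicates 1, 2 and 3 (symbols) and in the pooled optimal list (black bars), with a grey line over the range of the replicates. Hr4 (56 to 90) and Hr3 (417 to 455) stand apart from each other and from the other 5 genes, whose ranges lie between 1128 and 3845. The best summit can be a different site in each list. That of Hr38 was at the start of Cen in every list, and that of Hr39 in replicate 3 (3845) was at the start of CG8671.

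By the best summit in each window, Hr4 came first and Hr3 second in all 3 replicates, and their ranges overlapped with no other gene. Of the 21 pairs of genes, 14 had the same order in all 3 replicates and 12 had ranges that did not overlap. Hr38 entered these pairs with the summit at the start of Cen, and they were not recounted without it. The 7 pairs that changed order were among the 10 pairs of Hr38, Hr78, Hr39, ftz-f1 and Blimp-1. The other 3 of those 10 kept their order, with ftz-f1 ahead of Hr39 and of Blimp-1, and Hr78 ahead of Blimp-1 with ranges that did not overlap. A best summit could be a different site in each replicate, as it was at Hr39 and Blimp-1. At ftz-f1 it was the summit at 18756701 in replicate 1 and that at 18759355 in replicates 2 and 3. At the summits best in the pooled list, replicate 1 ranked ftz-f1 (5370) behind Hr39 (3665) and Blimp-1 (4247). Over the whole list, the median pooled rank of the 56 summits was 4041, against 4658.5 for all optimal summits, and 33 of the 56 (58.9%) were among the 4658 strongest. At the top of the list the difference was the other way, with 4 of the 56 (7.14%) in the top 1000, where 10.7% of all optimal summits lie. Those 4 were the 3 summits of Hr4 intron 2 and the intronic summit of Hr3.

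Of the 56 summits, 47 (83.9%) had a summit within 100 bp in the relaxed lists of all 3 replicates, against 86.9% of all optimal summits. Another 8 were matched in 2 replicates. Restricted to the 9316 highest peaks of each replicate, 31 (55.4%) were matched in all 3, against 58.6%. The optimal list was made from these replicates, so its summits had to recur in them to some degree. The median ratio of worst to best replicate rank was 2.01 at the 47 summits and 1.86 at the 8100 of the whole list. Matched replicate summits lay a median of 19.5 bp from the optimal one. As a description, the Spearman correlation of the replicates' ranks across the summits was 0.33 for replicates 1 and 2 (48 summits), 0.73 for 1 and 3 (50) and 0.58 for 2 and 3 (51). Over all optimal summits it was 0.61, 0.76 and 0.75. The points share their 3 libraries and neighbouring summits share fragments.

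**Figure D4:**
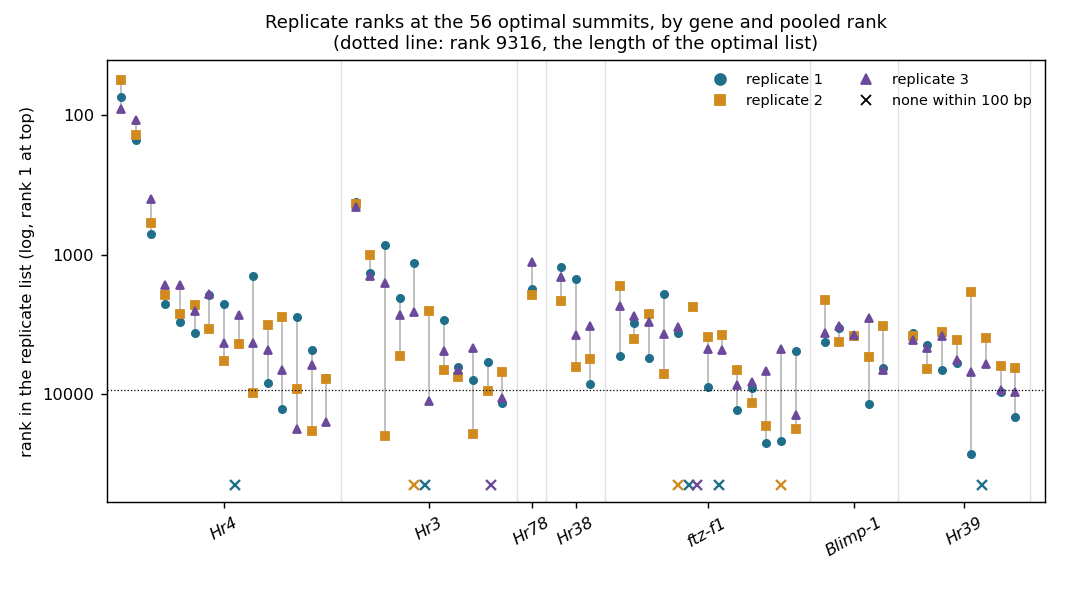
Rank of the 56 optimal summits in each replicate's relaxed list (log axis, rank 1 at the top), by gene and then pooled rank, with a cross where no replicate summit lay within 100 bp and a dotted line at rank 9316. The Hr3 summit near Hdc at 853, 20174 and 1606 and the Hr39 summit at 27068, 1849 and 7009 have the longest bars.

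Below the optimal threshold the same windows held 83 further pooled relaxed summits, and 80 of all 139 pooled summits had a q value under 0.01. The replicate lists held 138, 130 and 142 summits there. Of the summits outside the optimal list, 18 recurred within 100 bp in all 3 replicates, 7 of them at Hr4. The 1 at Hr38 shared its replicate 2 and 3 summits with the optimal summit 1658 bp upstream of the TSS. At Hr78 such a summit, at 21496902 inside the gene and near its inner starts, ranked 8037, 17406 and 9324. Relaxed lists include background by design, so these summits are listed and not called bound.

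The Sox core word AACAAT was found on either strand in 3 of the 56 windows reaching 50 bp to each side of the summits (5.36%), against 12.2% of all optimal windows. It was found in 12.5% of windows 1000 bp to each side of the same summits. All 3 matches were downstream of the gene, near the starts of CG34221, east and Atg3, and none was at the strongest Hr4 or Hr3 summits. The longer AACAAAG was present in 5 windows (8.93%), against 6.39% of all optimal windows and 2.68% of the side windows. Taking the 8 heptamers with A or T, A or T, CAA, A or T and G, 13 windows (23.2%) held a match, against 18.8% of all optimal windows and 13.4% of the side windows. AACAAAG is one of these 8. The best summits of Hr4 and Hr3 were among the 13.

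The GAGA word GAGAGAG, of the kind bound by GAGA factor, was in 7 of the 56 windows (12.5%), against 2.57% of all optimal windows and 2.68% of the side windows. Of the 7, 4 were at ftz-f1, among them the summit at the Atg3 start, 2 at Hr39 and 1 at Hr3. Among the 39 windows more than 500 bp from any annotated TSS, 5 (12.8%) held it, against 2.21% of all optimal windows so placed. In windows of 51 bp it was in 2 of 56 (3.57% against 1.18%), and in windows of 201 bp in 8 (14.3% against 5.55%). The median GC content was 39.6% in the 56 windows and 34.7% in all optimal windows, and its part in the difference was not tested. The half-site AGGTCA of nuclear receptors was found once, at the strongest ftz-f1 summit printed above, or in 1.79% of windows against 2.02%. CAAGGTCA, the monomer type of site bound by ftz-f1 itself, was found in no window, where 0.193% of all optimal windows hold it. AACAATG, TATCGATA and CAGGTAG were found in none, where 2.51%, 1.73% and 0.386% of all optimal windows hold them.

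Other genes were compared as lists. Windows with an optimal summit were found at all 11 early ecdysone regulators, 14 of 15 other nuclear receptors and all 7 receptor coregulators. Over all protein-coding genes the share was 60.7%. A summit within 500 bp of an own TSS was present at all 11 early regulators, at 8 of the 15 receptors and at 4 of the 7 coregulators, beside 4 of the 7 genes described here. That share was 29.6% over all protein-coding genes. The median number of summits per gene was 7, 3 and 3, against 8 for the 7 genes, a count that depends on window length. Per 10 kb the median was 2.26 for the early regulators, 1.19 for the receptors and 1.46 for the coregulators, against 1.97 for the 7 genes and 0.772 for all protein-coding genes. The median best rank was 758, 1295 and 2101, against 1484 for the 7 genes and 2380 for all protein-coding genes with a summit. The best-ranked early regulators were Sox14 itself (rank 1), vri (109) and MsrA (209), which was first named Eip71CD. Of the other receptors these were Eip75B (68), Eip78C (152) and ERR (655), and tll had no optimal summit. Of the coregulators these were Smr (830), Utx (1390) and tai (1586). Hr4, at 63, was close to Eip75B, which ranked 39, 106 and 64 in the replicates while Hr4 ranked 74, 56 and 90. Those ranges overlapped.

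The protein-coding gene whose best ranks were nearest over the 3 replicates was Rpn5, a proteasome subunit gene, for Hr4, with a largest difference of 0.084 in log10 rank. It was AIF for Hr3 (0.034), Sec61alpha for Hr38 (0.031), sqd for Hr39 (0.014), Vrp1 for Hr78 (0.017), Plc21C for ftz-f1 (0.034) and CG10505 for Blimp-1 (0.03). The Hr38 ranks compared were those of the summit at the start of Cen. Rpn5 had 3 optimal summits where Hr4 had 15, and AIF had 1 where Hr3 had 11. Sec61alpha had 6 against 3 at Hr38, sqd 4 against 8 at Hr39 and Vrp1 6 against 1 at Hr78. Plc21C had 3 against 13 at ftz-f1, and CG10505 had 4 against 5 at Blimp-1. Likeness in the best rank did not extend to the number of summits at Hr4 and Hr3, a number that depends on window length.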

How the data were processed

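The authors deposited peak lists on builds dm6 and dm3, namely relaxed lists for single replicates and for their pool, and an optimal list cut by irreproducible discovery rate (IDR), per the deposited text descriptions. Chromatin was sonicated to 200 to 800 bp, per the labels' protocols. Which aligner, peak caller and IDR cutoff were used is not given in the sources used here. For every peak the deposited files give a signal value and a −log10 q value from the authors' caller. Peaks were ranked by signal inside their own list and no signal was compared across lists. The −log10 q value was at its highest, 4.26, in 9198 of the 9316 optimal peaks and could not rank them. The optimal peaks were the 9316 highest of the pooled list. A control entered the authors' calls, per the same descriptions, and was not analysed here. The dm3 lists were not used.

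Summits (start plus summit offset) were counted in gene spans of Ensembl release 115 (BDGP6.54.115) plus 5 kb on each side, and no peak ran past the end of its arm in the Release 6 sequence from RefSeq. Summits within 100 bp were taken as shared between lists. Words were sought on both strands in windows reaching 50 bp to each side of summits and of points 1000 bp to each side. With 1 group and no control, no test between conditions exists and no p-value is given. The number of replicates limits precision, and no interval covers sequencing error. Scripts (Python 3.11.15, numpy 2.4.6, pandas 2.3.3, matplotlib 3.10.9) were tested on simulated data with planted summits and words, which were counted back.

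The 7 genes, the gene lists and the alternatives were chosen with earlier results of these data known. Named genes were the 7 genes, from each list the 3 members of best rank and any without an optimal summit, the gene nearest to each of the 7 in its replicate ranks, and neighbours whose TSS was nearest to a summit. In the lists Eip71CD was matched through RefSeq synonyms to MsrA, and DOR could not be matched to a single gene and was left out. The alternatives were the flank, the peak set, each replicate left out, the distance for sharing, the TSS distance, the word window and the ranking value. The 8 Sox heptamers, the assignment of summits to the nearest TSS and replicate ranks by the strongest summit inside a peak were added after the data were seen.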

Additional observations from a re-analysis of the deposited data

How the results depend on the processing

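All 7 genes kept an optimal summit with flanks of 1 or 10 kb, with pooled relaxed peaks of q under 0.01, in the 4658 strongest optimal peaks, without each replicate and by the nearest protein-coding TSS. The 56 summits became 33 among those 4658 peaks, 43 with 1 kb flanks, 62 with 10 kb flanks, 80 with relaxed peaks of q under 0.01 and 39 by the nearest protein-coding TSS. Requiring a match in the top peaks of both remaining replicates left 33 to 38 when each replicate was left out, and 33 without replicate 3. The 47 summits in all 3 replicates became 31 at a distance of 50 bp, 31 in the top peaks of each replicate, 54 at 200 bp, and 48 to 51 when each replicate was left out. The 6 summits within 500 bp of the gene's own TSS became 11 at 1 kb and 5 at 250 bp. The 3 windows with AACAAT became 8 at 201 bp, 2 at 51 bp and 13 with the 8 Sox heptamers. The best rank of Hr38 fell to 2888 with 1 kb flanks, which leave out the summit at Cen. With the strongest replicate summit inside the peak, an alternative chosen after seeing the data, the ratio of worst to best rank fell from 14.6 to 6.22 at Hr39 and from 4.16 to 1.89 at Blimp-1 and was 23.7 as before at Hr3. It did not only narrow the spread. At the ftz-f1 summit at 18756701 the ratio rose from 3.74 to 6.68. Over all alternatives, 56 values stayed and 27 moved beyond their limit. The limit was a fixed factor of the main value or, for best ranks, the standard deviation of the 3 replicate ranks. Those same replicate ranks were among the values judged, so the tally is a description and no measure of robustness. Ranking by q value moved the best rank of every gene, because of its ties. No paired analysis was possible because there was 1 group. Read depth is unknown, so a summit missing from a list is not shown to be unbound.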

Other observations

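The replicate in which a summit ranked best differed between the genes. At Hr3 7 of the 11 summits ranked best in replicate 1, while at Hr39 6 of the 8 ranked best in replicate 2. Over the 56 summits the counts were 18, 21 and 17 for replicates 1, 2 and 3, and over all optimal summits the shares were 36.6%, 35.7% and 27.7%. These genes were singled out after their values were seen, and the neighbouring summits of a gene are not independent of each other.

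Summits less than 250 bp apart occurred in 4 of the 49 gaps within the windows, 2 at Hr3 and 2 at ftz-f1, against 6.25% of the 9310 gaps between neighbouring optimal summits. The smallest gap in the optimal list was 199 bp, and 33 of the 56 peaks had the width of 424 bp shared by 5285 of the 9316 optimal peaks. Such pairs were counted here as separate summits.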
